A study of Canis lupus familiaris with 18 samples.

Results

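The genes described here are the block of 37 consecutive Ensembl gene IDs from ENSCAFG00000022708 to ENSCAFG00000022744, taken as the genes of the dog mitochondrial genome and called members below. They were found by ID number among the 32220 gene IDs of the count tables, and 37 of 37 were present. Counts came from 18 libraries of MDCKI, a line of dog kidney epithelial cells. The parental MDCKI line was set against MDCKI cells with bPAC, a photoactivated adenylyl cyclase of bacterial origin that turns ATP into cyclic AMP when lit with blue light. For 2 h, starting 16 h after plating, cells of each line stayed dark or received low or high light, in medium with 0.5% FCS. Parental cells gave 3 libraries in the dark, 3 in low and 2 in high light. The bPAC line gave 3, 4 and 3. All groups shared the medium and the plating schedule. The labels give neither the promoter that drives bPAC, nor the light intensities, nor whether the bPAC line is 1 clone, nor whether replicates are separate cultures. The p-values therefore reflect the spread among these libraries only, and that spread may be technical.

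The mitochondrial genome is a small circular DNA. In mammals it encodes 13 proteins of the respiratory chain and ATP synthase, 2 ribosomal RNAs and 22 transfer RNAs. Both strands are transcribed into long precursors that cover many genes, and the precursors are cut into single RNAs, many of them at the transfer RNAs that lie between the other genes. The level of each RNA therefore depends on transcription, which members share, and on cutting, polyadenylation and decay, which differ from gene to gene. Kidney tubule epithelium depends heavily on mitochondrial respiration for salt transport. Cyclic AMP is best known for activating protein kinase A, the subject of the series' title.

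The files name genes by ID alone and 0 of the 37 IDs were found in the reference table, so no member is given a symbol, a class or a role here, and no sequence is shown. The block was checked by abundance. Of the 37 members, 4 were among the 10 most abundant of all gene IDs and 11 among the 100 most abundant. The IDs just outside the block were nearly silent: the 5 IDs found among the 20 numbers before it had at most 7 reads each in all 18 libraries together, and the 4 IDs among the 20 numbers after it had 0. Of all 32220 gene IDs only 16648 had a read, so silent neighbours are common and say little about the block. The counts do not mark where the block begins, since its first member, ENSCAFG00000022708, had 10 reads in all, and they do not name its genes. The kidney epithelial identity of the cells could not be checked against marker genes for the same reason.

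Libraries were made with a 3' end kit, which reads from near the end of a transcript, so counts do not scale with gene length and a comparison of levels between members depends on how well each 3' end was captured and annotated. Levels are reads per 1000000 gene reads (CPM) after scaling of the libraries by TMM. A library held 2638511 to 9610144 gene reads. Multiply aligned reads were 37.5% to 44.4% of all reads, and 41.7% to 44.4% in bPAC high light against 38.5% to 39.9% in bPAC dark. Mitochondrial sequences have near copies in the nuclear genome, and neighbouring mitochondrial genes touch or overlap, on both strands. Reads shared with a copy or with a neighbour may be lost or assigned to either, and whether counting used the strand is not given in the sources used here. Reads counted as ambiguous between genes were more frequent in light: 0.0475 to 0.0605 per 100 gene reads in the 7 low light libraries of both lines, 0.0437 to 0.0584 in the 5 high light libraries and 0.0329 to 0.0411 in the 6 dark ones. The part of these reads in the results below was not tested.

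**Figure D1:**
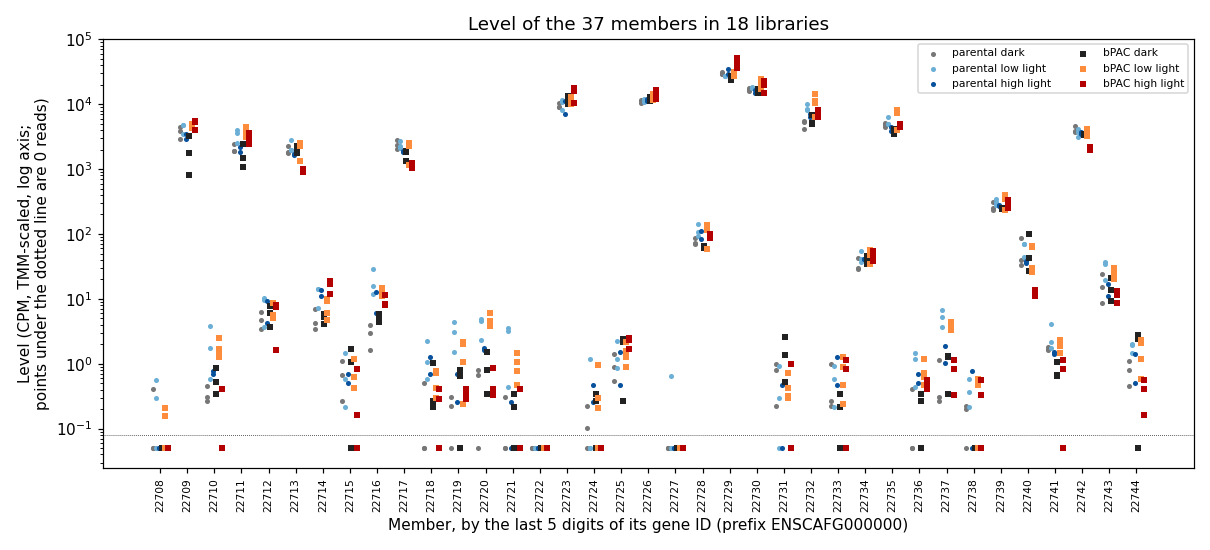
Level in CPM (log axis) of the 37 members, in the order of their IDs, with 1 point per library coloured by group; points under the dotted line are libraries with 0 reads. Levels run from 0 reads for ENSCAFG00000022722 to a mean of 30696 CPM for ENSCAFG00000022729.

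Levels within the block ran from no reads at all to the most abundant gene of the libraries. The most abundant member, ENSCAFG00000022729, had a mean of 30696 CPM and held more reads than any other gene in 10 of 18 libraries. ENSCAFG00000022730 followed at a mean of 17880.4 CPM, ENSCAFG00000022726 at 12218 CPM and ENSCAFG00000022723 at 11303 CPM. These 4 members took 65.1% to 80.1% of the block's reads in a library. The next were ENSCAFG00000022732 at 7564 CPM and ENSCAFG00000022735 at 5139 CPM, and 11 members with a mean of 1000 CPM or more held 99.3% to 99.6% of the block's reads.

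At the other end, 22 of the 37 members had a mean under 20 CPM, the highest of them at 19.1 CPM, and the next member above stood at 42.4 CPM. That border was chosen after the levels were seen. Whether these 22 are the transfer RNA genes cannot be told from the files. ENSCAFG00000022722 had 0 reads among the 82412310 gene reads of all libraries, which allows a level of up to 0.0364 CPM for counting error only. The other 36 members had at least 1 read, and 27 to 35 members were detected per library.

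Of the 37 members 25 passed the filter on low counts and were tested, the 15 members above 40 CPM and 10 of the 22 below 20 CPM. The 12 members left out had between 0 and 137 reads in all libraries together. A member passed if at least 2 libraries reached 2.38 CPM. For 5 of the tested members (ENSCAFG00000022710, ENSCAFG00000022719, ENSCAFG00000022720, ENSCAFG00000022721 and ENSCAFG00000022737) only low light libraries reached that level, so these members entered the test because they were high in low light. Their calls are given apart from those of the other 20 tested members.

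The block as a whole took a steady share of the gene reads, between 8.35% and 10.9% in the 18 libraries. In parental cells the members summed to 9.46%, 9.92% and 10.3% of gene reads in the dark, 9.79%, 10.7% and 9.83% in low light, and 9.81% and 9.20% in high light. These 3 groups overlapped. In bPAC cells the share was 9.20%, 9.60% and 8.35% in the dark, 10.2%, 10.7%, 10.05% and 10.9% in low light, and 9.84%, 10.6% and 8.80% in high light.

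The 4 bPAC low light libraries lay above the 3 bPAC dark libraries without overlap, at 10.5 ± 0.420% (SD, n = 4) against 9.05 ± 0.637% (SD, n = 3), while bPAC high light at 9.75 ± 0.914% (SD, n = 3) overlapped both. As a share of all reads, with reads outside genes and multiply aligned reads included, the low light and dark groups overlapped, with bPAC low light 3 at 3.19% and bPAC dark 2 at 3.25%. The log2 ratio of the mean shares was 0.21 for bPAC low light and 0.11 for bPAC high light, and 0.03 and -0.06 for the 2 doses in parental cells. Without ENSCAFG00000022729 in numerator and denominator, the ratio for bPAC high light was -0.05, and over all reads it was 0.03. The 4 most abundant members hold most of the block's reads, but the rise in bPAC low light did not simply follow them. Without ENSCAFG00000022729 that ratio was 0.26. The log2 fold changes of the 4 members in bPAC low light were 0.20, 0.27, 0.11 and 0.01, in order of level. Those of the next 2 in level, ENSCAFG00000022732 and ENSCAFG00000022735, were 0.92 and 0.80.

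**Figure D2:**
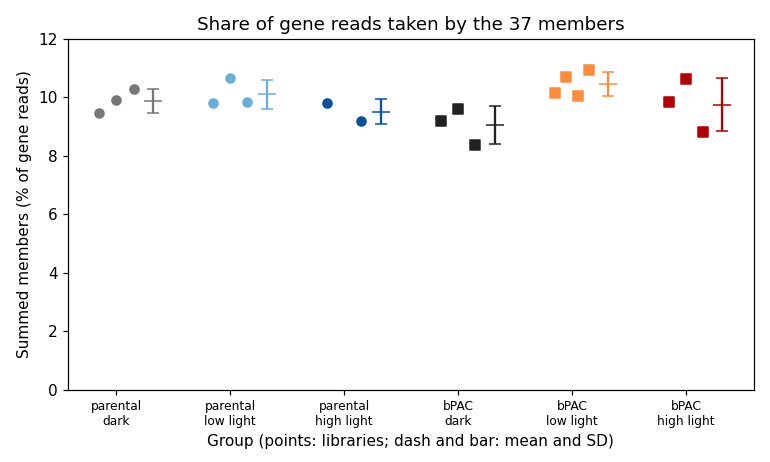
Summed reads of the 37 members as a percentage of all gene reads, 1 point per library by group, with the group mean and SD beside the points; the axis starts at 0. Every library lies between 8.35% and 10.9%, and the bPAC low light libraries lie above the bPAC dark ones.

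The parental line, which has no bPAC, also differed between low light and dark. Of the 25 tested members, 8 were higher and 0 lower in low light than in the dark (edgeR adjusted p under 0.05). Over all 8530 tested genes, 11.4% were called in this comparison, 6.76% higher and 4.68% lower. Of the 8 calls, 5 were the members that entered the test through low light libraries, which leaves 3 of the other 20, a share near that of all genes. The 3 were ENSCAFG00000022714, ENSCAFG00000022716 and ENSCAFG00000022732. Over these 20, of which 17 lay above 0, the median log2 fold change was 0.21, and over all tested genes it was -0.01. With the 5 others included the median was 0.60.

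ENSCAFG00000022732 was the 1 member called in parental low light among the 11 of at least 1000 CPM, where 22.7% of the 150 genes of that level were called. It stood at 5520.4, 4153 and 5299 CPM in the dark and at 8231, 10212 and 8317 CPM in low light. The groups did not overlap, and the rise was 1.79-fold (log2 fold change 0.84, SE 0.23, edgeR adjusted p = 0.0233). It was not called without parental dark library 2 or without parental low light library 2, where the highest adjusted p was 0.138.

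ENSCAFG00000022716 was at 4.02, 1.61 and 2.94 CPM in the dark and at 15.6, 29.3 and 11.7 CPM in low light, from 59 and 266 reads in all. It was called in parental low light under each of 29 alternative settings. Of these, 18 left out 1 library each, many of them from groups not compared here. ENSCAFG00000022714 was at 7.04, 3.49 and 4.29 CPM in the dark and at 14.4, 14.2 and 7.14 CPM in low light (log2 fold change 1.21, SE 0.34, edgeR adjusted p = 0.0297). Its groups lay close to touching, at 7.04 and 7.14 CPM, and leaving out any of 4 parental libraries, dark 2 or 3 or low light 1 or 2, ended the call.

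The largest fold changes belonged to 2 members that had almost no reads in the dark. ENSCAFG00000022721 had 3 reads over parental dark and 32 over parental low light, a ratio of 14.4 with a 95% counting interval of 4.49 to 73.2 (exact binomial, counting error only; edgeR adjusted p = 0.0155). ENSCAFG00000022719 had 4 reads in the dark and 39 in low light, at 4.41, 3.13 and 1.51 CPM in the low light libraries (edgeR adjusted p = 0.0075). Both entered the test through low light libraries alone. Without parental dark library 2, 4 members and 2.85% of all genes were called. These were 5 members and 7.43% without parental low light library 1, and 3 members and 3.16% without parental low light library 2, so calls were lost over all genes as well.

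**Figure D3:**
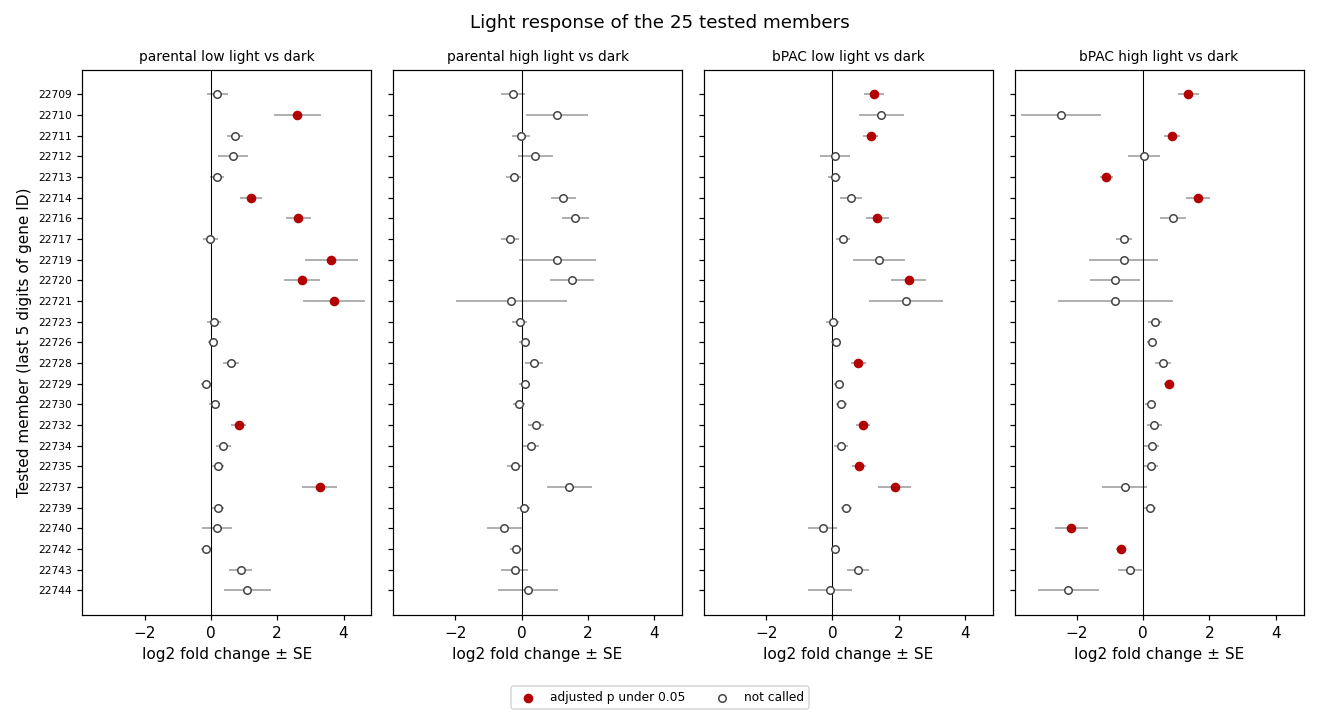
Log2 fold change against dark, with its SE, of the 25 tested members at each dose in each line; filled points have an edgeR adjusted p under 0.05. Low light gave 8 members higher and 0 lower in each line, of which 5 in parental and 2 in bPAC cells entered the test through low light libraries alone, and high light 4 higher and 3 lower in bPAC cells and none in parental cells.

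In bPAC cells 8 of the 25 tested members were higher and 0 lower in low light than in the dark (edgeR adjusted p under 0.05). Of all 8530 tested genes, 35.3% were called in this comparison, 17.2% higher and 18.1% lower, so the members were called about as often as other genes. Of the 8, 2 had entered the test through low light libraries and 6 were among the other 20. Over these 20, of which 18 lay above 0, the median log2 fold change was 0.30, and over all tested genes it was 0.03. With the 5 others included the median was 0.56, and 23 of 25 lay above 0. With total gene reads in place of TMM, 18 of 25 lay above 0 and the number called was again 8, the same members. In that fit 2915 of 8530 genes were called.

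Of the 8, 4 were among the 11 members of at least 1000 CPM, where 44% of the 150 genes of that level were called. ENSCAFG00000022709 stood at 3193, 1778 and 809 CPM in bPAC dark and at 4946, 4810.0, 4296 and 4311 CPM in low light. The low light libraries lay close together and above every dark library, while the dark libraries were spread almost 4-fold. The rise was 2.38-fold (log2 fold change 1.25, SE 0.31, edgeR adjusted p = 0.00635). It was not called with 1 surrogate variable in the model or without bPAC low light libraries 1 and 4, with adjusted p up to 0.0954.

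ENSCAFG00000022711, chosen for mention after its values were seen, behaved in a like manner. It was at 2402, 1465 and 1088 CPM in bPAC dark and at 4406, 3523, 3102 and 3669 CPM in low light, without overlap. The rise was 2.22-fold (log2 fold change 1.15, SE 0.24, edgeR adjusted p = 0.00188) and was called under each of 29 alternative settings. In parental cells its low light libraries, at 4002, 3646 and 2569 CPM, also lay above the dark ones, at 1874, 1889 and 2447 CPM, with an edgeR adjusted p of 0.0623.

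The other abundant members called were ENSCAFG00000022732 and ENSCAFG00000022735. ENSCAFG00000022732 was at 5146, 4918 and 6822 CPM in bPAC dark and at 6448, 10309, 11333 and 14620.3 CPM in low light (log2 fold change 0.92, SE 0.22, edgeR adjusted p = 0.0040). ENSCAFG00000022735 was at 4168, 4190.5 and 3483 CPM in the dark and at 3944, 8069, 7299.8 and 8269.8 CPM in low light (log2 fold change 0.80, SE 0.20, edgeR adjusted p = 0.00556). In both, bPAC low light library 1 lay within the range of the dark libraries and the other 3 lay above it. The same library was also the lowest of the 4 in ENSCAFG00000022713 and ENSCAFG00000022717, and the highest in ENSCAFG00000022730 at 24242 CPM.

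The count of members called in bPAC low light changed with the libraries used. With it left out, 10 members were called in place of 8, with 28% of all genes called in the same fit. Without libraries 1 and 4, 6 members and 12.2% of all genes were called. Without libraries 2 and 3, these were 9 members and 42.2%. A surrogate variable, a term estimated from the data for variation that the groups do not explain, left 2 members, ENSCAFG00000022711 and ENSCAFG00000022735, and 5.9% of all genes, where 35.3% were called without it.

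Among the low members, ENSCAFG00000022720 and ENSCAFG00000022737 had the largest fold changes in bPAC low light, and both had entered the test through low light libraries. ENSCAFG00000022720 was at 1.49, 0.339 and 0.787 CPM in the dark and at 4.53, 3.80, 4.39 and 5.97 CPM in low light, from 11 and 90 reads (log2 fold change 2.30, SE 0.52, edgeR adjusted p = 0.00327). ENSCAFG00000022737 was at 1.28, 0.339 and 1.31 CPM in the dark and at 3.34, 3.59, 4.10 and 4.40 CPM in low light, from 12 and 73 reads (log2 fold change 1.88, SE 0.50, edgeR adjusted p = 0.00798). ENSCAFG00000022716 was at 5.75, 4.41 and 4.72 CPM against 11.7, 10.99, 14.6 and 14.1 CPM (edgeR adjusted p = 0.0077). In ENSCAFG00000022716 every low light library lay above every dark library. The same held for ENSCAFG00000022720 and ENSCAFG00000022737, where the filter favoured it.

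Side by side, the lines, which have no library in common, can be compared in low light. Over the 20 members whose test did not depend on low light libraries, 15 had the same sign in both lines, and their fold changes correlated at r = 0.522 (Spearman's rho 0.430, a description across members, which share libraries). With the 5 members that passed through low light libraries, r was 0.825 over 25 members, so much of that value rests on members selected for high levels in low light. Of the 8 members called in each line, 4 were the same. They were ENSCAFG00000022716 and ENSCAFG00000022732, and ENSCAFG00000022720 and ENSCAFG00000022737 from among the 5, where the filter favoured a call in both lines. The overlap of the lines over all called genes was not counted, so that of the members cannot be set against it. The interaction of line and low light called 0 of 25 members (edgeR; 3 had an unadjusted p under 0.05, and DESeq2 and limma-voom also called 0), where 0.0352% of all genes were called, 0.0234% higher and 0.0117% lower. ENSCAFG00000022709 had the largest log2 difference among the abundant members, 1.06 (SE 0.44) more in bPAC than in parental cells, with an adjusted p of 0.809. A difference between the lines in low light was thus not shown for any tested member.

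The 22 members under 20 CPM can also be summed, which involves no filter. In parental cells they took 5.43, 2.48 and 3.68 per 100000 gene reads in the dark, 10.1, 13.2 and 6.64 in low light, and 5.77 and 5.39 in high light. In bPAC cells they took 5.81, 4.21 and 3.02 in the dark, 7.59, 7.64, 6.65 and 6.70 in low light, and 4.67, 4.28 and 3.52 in high light. In each line every low light library lay above every dark and every high light library. These sums rest on 82 to 697 reads per library, and no test was made of them, since the border was chosen after the levels were seen. They mainly follow the members with most reads in all libraries: ENSCAFG00000022743 (1639), ENSCAFG00000022716 (820), ENSCAFG00000022714 (760) and ENSCAFG00000022712 (516). The sums therefore do not show that the 22 rise together. ENSCAFG00000022714 had a higher mean in bPAC high light (15.9 CPM) than in bPAC low light (7.47 CPM).

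**Figure D4:**
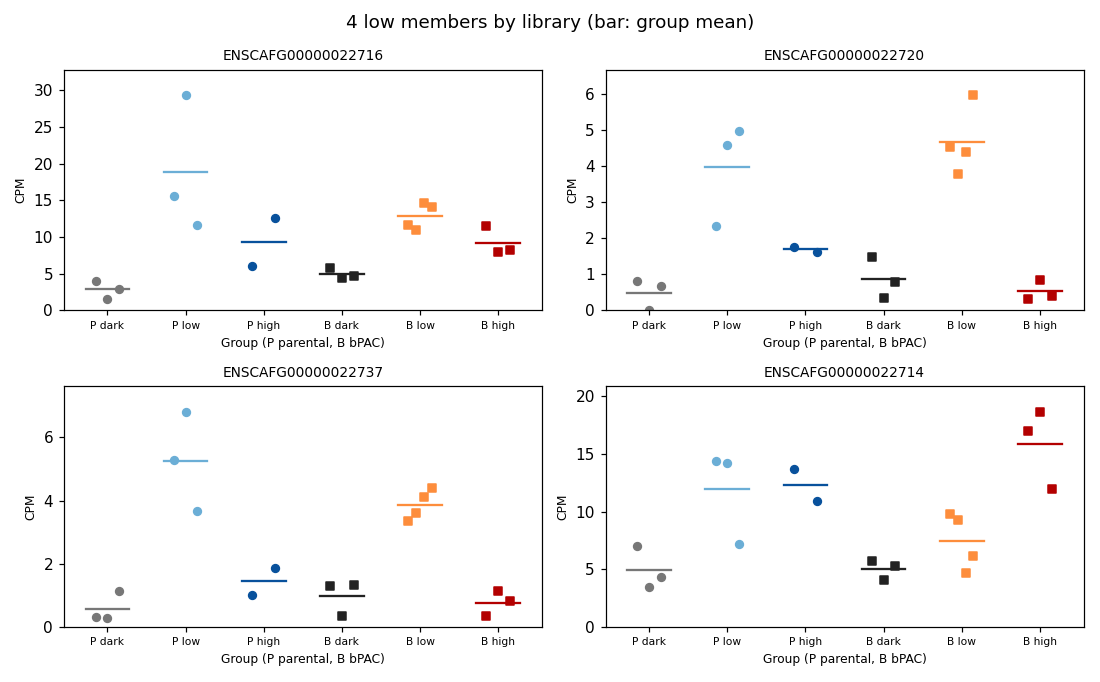
Level in CPM of 4 members under 20 CPM in each library, by group, with the group mean as a bar; axes start at 0. ENSCAFG00000022716, ENSCAFG00000022720 and ENSCAFG00000022737 have their highest group means in low light in each line; ENSCAFG00000022720 and ENSCAFG00000022737 entered the test through low light libraries alone, and ENSCAFG00000022714 has its highest at 15.9 CPM in bPAC high light.

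In bPAC high light members were called in both directions. Of the 25 tested members 4 were higher and 3 lower than in the dark (edgeR adjusted p under 0.05), where 24.6% of all tested genes were called, 12.7% higher and 11.9% lower, so 7 of 25 is near the share of all genes. With total gene reads in place of TMM, 3 were higher and 5 lower, with 2218 of 8530 genes called. That setting moves the median log2 fold change of all genes from 0.03 to -0.28, and the members' median from 0.20 to -0.13. The sign of the members' median thus depends on the scale, and it gives no direction for the block as a whole. In both settings the members' median lay above that of all genes. None of the 5 members that passed through low light libraries was called here. Among the 11 members of at least 1000 CPM 5 were called, where 50.7% of the 150 genes of that level were called.

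The most abundant member rose. ENSCAFG00000022729 stood at 23711, 27139 and 24074 CPM in bPAC dark, 27490.5, 29126, 26934 and 30920.3 CPM in low light, and 41889, 51029 and 35645 CPM in high light. The high light libraries lay above every other library of either line, the highest of which was parental high light 1 at 34362 CPM. The rise against dark was 1.72-fold (log2 fold change 0.78, SE 0.15, edgeR adjusted p = 0.00127) and was called under each of 29 alternative settings, with log2 fold changes from 0.45 to 0.89. In these libraries the member took up to 4.0% of all gene reads.

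ENSCAFG00000022709 was as high in bPAC high light as in low light, at 5389, 5463 and 4054 CPM, 2.58-fold above dark (log2 fold change 1.37, SE 0.33, edgeR adjusted p = 0.00726). ENSCAFG00000022711 was at 2990.3, 3572 and 2441 CPM (edgeR adjusted p = 0.0161), which was lost with total gene reads as the scale and without bPAC dark library 2 or 3 or bPAC high light library 2. The highest bPAC dark library, at 2402 CPM, was close to the lowest in high light.

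ENSCAFG00000022714 rose most among the members called. It was at 5.75, 4.07 and 5.24 CPM in bPAC dark and at 17.0, 18.7 and 11.99 CPM in high light, from 59 and 199 reads (3.14-fold, log2 fold change 1.65, SE 0.36, edgeR adjusted p = 0.0033). It was the only called member under 20 CPM in this comparison. In parental high light it was at 13.7 and 10.9 CPM, above the parental dark libraries, with an edgeR adjusted p of 0.128.

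The 3 members that fell in bPAC high light were ENSCAFG00000022740, ENSCAFG00000022713 and ENSCAFG00000022742. ENSCAFG00000022740 was at 41.9, 26.8 and 98.9 CPM in the dark and at 12.3, 13.9 and 11.2 CPM in high light, a 4.48-fold fall (log2 fold change -2.16, SE 0.51, edgeR adjusted p = 0.00705). Its dark libraries were widely spread and its high light libraries close together. ENSCAFG00000022713 was at 2098, 2251 and 1802 CPM in the dark and at 922, 912 and 1019.6 CPM in high light (log2 fold change -1.11, SE 0.21, edgeR adjusted p = 0.00135). In low light it was at 1342, 2539, 2446 and 2259 CPM, with only library 1 below the dark range.

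ENSCAFG00000022742, chosen for mention after its values were seen, was at 3343, 3536 and 3322 CPM in bPAC dark and at 1986, 2217 and 2207 CPM in high light (log2 fold change -0.67, SE 0.15, edgeR adjusted p = 0.00428). In low light it was at 3344, 3284, 3736 and 4115 CPM, like the dark. All 3 falls were called under each of 29 alternative settings. In each of the 3 members the bPAC high light libraries lay below every other library of both lines.

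**Figure D5:**
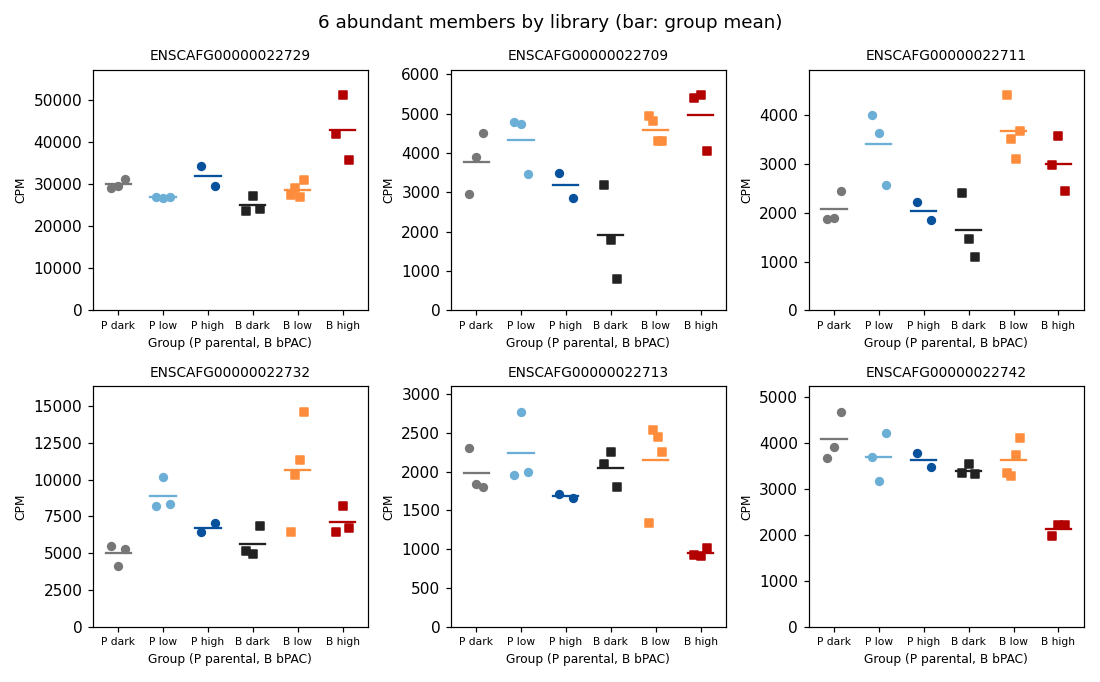
Level in CPM of 6 members of at least 1000 CPM in each library, by group, with the group mean as a bar; axes start at 0. In bPAC high light ENSCAFG00000022729 is above, and ENSCAFG00000022713 and ENSCAFG00000022742 are below, all other libraries.

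Compared directly, the doses differed in bPAC cells for 10 of the 25 tested members, with 2 higher and 8 lower in high light (edgeR adjusted p under 0.05), where 10.2% of all tested genes were called, 5.18% higher and 5.03% lower. Of the 10, 3 had entered the test through low light libraries, and 7 were among the other 20. Among the 11 members of at least 1000 CPM 4 were called, where 24% of the 150 genes of that level were called. This comparison shares its libraries with those against dark, so its calls are not independent of them. ENSCAFG00000022729 and ENSCAFG00000022714 were higher in high light, with log2 fold changes of 0.58 (SE 0.13, adjusted p = 0.0121) and 1.09 (SE 0.31, adjusted p = 0.0334).

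The largest falls belonged to ENSCAFG00000022710 and ENSCAFG00000022720, both of which had entered the test through low light libraries alone, so that a fall from low light was favoured by the filter. ENSCAFG00000022710 had 32 reads in the 4 low light libraries and 1 in the 3 high light libraries, a ratio of 20.7 with a 95% counting interval of 3.45 to 841 (edgeR adjusted p = 0.0166). That call was lost with DESeq2 and without bPAC high light library 1 or 2, with adjusted p up to 0.126. ENSCAFG00000022720 went from 3.80 to 5.97 CPM in low light to 0.327, 0.849 and 0.413 CPM in high light (log2 fold change -3.15, SE 0.58, edgeR adjusted p = 0.0031), against 1.49, 0.339 and 0.787 CPM in the dark.

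Of the others, ENSCAFG00000022713 (log2 fold change -1.17, adjusted p = 0.00188) and ENSCAFG00000022742 (-0.76, adjusted p = 0.00341) were called under each of 29 alternative settings. ENSCAFG00000022717, ENSCAFG00000022740 and ENSCAFG00000022743 were called under 25, 23 and 21 of 29, with edgeR adjusted p up to 0.0871, 0.111 and 0.148. ENSCAFG00000022737, which had entered through low light libraries, was called under 27 of 28. Without bPAC high light library 1, 3 members and 2.23% of all genes were called, and without bPAC high light library 2, 4 members and 6.07%. Both increases were lost in each case. A fit of only these groups gave 6 members and 3.6% of all genes, and one without bPAC low light libraries 2 and 3 gave 6 members and 15.5%.

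In parental cells high light called 0 of 25 members against dark (edgeR; 4 had an unadjusted p under 0.05), where 0.176% of all genes were called, 0.141% higher and 0.0352% lower. This group has 2 high light libraries. ENSCAFG00000022716 was at 6.07 and 12.6 CPM against 4.02, 1.61 and 2.94 CPM in the dark, with an edgeR adjusted p of 0.0954. DESeq2 called it, at an adjusted p of 0.0375, and limma-voom called 0. ENSCAFG00000022729 was at 34362 and 29621 CPM against 29083, 29597 and 31212 CPM in the dark. Between high and low light 0 of 25 were called in parental cells (edgeR; 7 had an unadjusted p under 0.05, and DESeq2 and limma-voom called 0), where 0.0117% of all genes were called.

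The interaction of line and high light called 0 of 25 members (edgeR; 8 had an unadjusted p under 0.05, and DESeq2 and limma-voom called 0), where 0.504% of all genes were called, 0.106% higher and 0.399% lower. The difference of the log2 fold changes was 1.62 (SE 0.49, adjusted p = 0.177) for ENSCAFG00000022709, 0.68 (SE 0.22, adjusted p = 0.194) for ENSCAFG00000022729 and -0.87 (SE 0.31, adjusted p = 0.244) for ENSCAFG00000022713. Without bPAC dark library 1 the interaction called ENSCAFG00000022709 (edgeR adjusted p = 0.0207), with 31 of 8459 genes called. With no filter it called ENSCAFG00000022709 and ENSCAFG00000022740 (edgeR adjusted p = 0.00016 and 0.00456), with 329 of 16648 genes called. In the reported fit, the changes seen in bPAC high light were therefore not shown to differ from those in parental high light. Over the 20 members whose test did not depend on low light libraries, the high light changes of the lines correlated at r = 0.489 (Spearman's rho 0.466), and 14 had the same sign. With the other 5 members r was 0.0749.

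Between the lines in the dark no tested member passed the test. The comparison called 0 of 25 (edgeR; 2 had an unadjusted p under 0.05, and DESeq2 called 0), where 6.53% of all genes were called, 3.61% higher and 2.92% lower. ENSCAFG00000022709 was lowest in bPAC dark, at 3193, 1778 and 809 CPM against 2954, 3889 and 4505 CPM in parental dark (log2 fold change -0.97, SE 0.32, edgeR adjusted p = 0.0839). limma-voom called it, at an adjusted p of 0.0497, and so did edgeR without bPAC dark library 1, at 0.00387. The level of this member in bPAC dark is also the base of its increases in light, and parental libraries in every group, from 2865 to 4801 CPM, lay above the 2 lower bPAC dark libraries.

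The shifts can also be read inside the block, as a member's share of the block's own reads, which does not depend on how libraries are scaled. ENSCAFG00000022729 took 36.4% to 37.7% of the block's reads in the 3 bPAC high light libraries, 27.7% to 30.2% in the dark and 26.3% to 27.4% in low light, without overlap. In parental cells it took 34.5% to 34.7% in high light, 31.8% to 33.6% in the dark and 25.9% to 29.3% in low light, in the same order and also without overlap. ENSCAFG00000022732 took 8.45% to 9.87% in parental low light against 4.72% to 6.04% in the dark.

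ENSCAFG00000022713 took 0.673% to 1.06% of the block in bPAC high light against 2.26% to 2.46% in bPAC dark, and ENSCAFG00000022742 took 1.64% to 2.30% against 3.87% to 4.17%. ENSCAFG00000022726 varied least of the abundant members over the 6 groups after ENSCAFG00000022730: its highest group mean was 1.29 times its lowest, and that of ENSCAFG00000022730 1.25 times. The spread within groups differed as well, from a coefficient of variation of 9.34% for ENSCAFG00000022726 to 29.2% for ENSCAFG00000022709 among the 11 abundant members.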

How the data were processed

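The labels' protocols name Lexogen's SPLIT kit for RNA and its QuantSeq 3' FWD kit for libraries, and the submitters' processing notes name CanFam3.1. No aligner, counting program, strand setting or annotation release is named in them, and each is not given in the sources used here. Raw read counts were deposited by the authors as 1 table per library, each with 32220 gene IDs and 5 rows for reads without a gene. Those 5 rows entered neither library sizes nor tests, and reads outside genes were 25.1% to 29.6% of all reads, multiply aligned ones 37.5% to 44.4%. Counts of replicates differed by more than sampling noise in all 19 pairs within groups, with chi-square from 8.43 to 63.9 per degree of freedom.

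All 18 libraries entered 1 model of 6 groups. Genes were filtered with filterByExpr (minimum count 10), which kept 8530, scaled by TMM and tested in 9 contrasts with edgeR 4.0.16 (glmQLFit, robust, and glmQLFTest, R 4.3.3), with Benjamini-Hochberg adjustment over all tested genes at 0.05. The SE of a log2 fold change was taken as its size over the square root of F. The script was tested on simulated data. Alternatives used DESeq2 1.42.0, limma 3.58.1, sva 3.50.0, other scalings, filters and libraries. Of the alternatives for a contrast, 18 left out 1 library each, from any of the 6 groups. Those that left out a library of a group not compared bear little on that contrast.

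The members and alternatives were chosen with earlier results of these data known. Named were the 6 members of highest mean level, any member without reads, and per contrast the 2 called members of largest fold change in each direction; others are marked as chosen after their values were seen or are counted among those called. Planned lists of nuclear genes and markers were not run, since no ID matched a symbol.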

Additional observations from a re-analysis of the deposited data

Results flagged for a closer look

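ENSCAFG00000022717 in the 4 bPAC low light libraries held 1 library far from the others. Library 1 was at 1161 CPM and the other 3 at 2529, 2472 and 2311 CPM, so the gap to the nearest was 0.841 of the whole range, above Dixon's critical value for 4 samples. Chance alone gives such a gap in about 1 in 20 groups. The check was made for every named member and for the summed share, so 1 such gap among them can arise by chance. The cause of the gap was not tested.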

How the results depend on the processing

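No paired analysis was possible because the labels give library codes and no replicate numbers shared between groups. Of 293 alternative values, 272 stayed within 1.5 times the reported count or within 1 SD between replicates of the reported share ratio, and 21 did not. Many of the 272 set a count of 0 against a reported count of 0, or left out a library of a group not compared. The tally therefore says little about the contrasts with calls. No named member that was called changed sign. With 1 surrogate variable 2 members were called in bPAC low light against dark, with 5.9% of all genes. Between high and low light in bPAC cells, fitting only the groups compared gave 6 members, with 273 of 7589 genes called. Leaving out bPAC low light libraries 2 and 3 also gave 6 members, with 1320 of 8489 genes called. In parental low light against dark 3 were called with a mean of at least 5 CPM, where 19 members were tested. In that fit 941 of 6378 genes were called. With only the groups compared 5 members and 1225 of 7562 genes were called. In parental high light against dark 1 was called by DESeq2, with no filter and with 1 surrogate variable. These fits called 135 of 8530, 227 of 16648 and 234 of 8530 genes. Between the lines in the dark 1 was called by limma-voom and with no filter, where 541 of 8530 and 864 of 16648 genes were called. The interaction of line and high light called 2 with no filter, where 329 of 16648 genes were called.

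Leaving out each library in turn gave 7 to 10 members in bPAC low light, with 20.4% to 38.5% of all genes called in the same fits. These were 6 to 9 in bPAC high light (11% to 27.8%) and 3 to 11 between the doses in bPAC cells (2.23% to 10.6%). In parental low light they were 3 to 9 (2.85% to 14.7%). Parental high light gave 0 to 0 against dark (0.0223% to 0.436%) and 0 to 0 against low light (0% to 0.0354%). Between the lines in the dark 0 to 1 were called (2.63% to 8.49%). The interactions called 0 to 0 with low light (0.0117% to 0.0708%) and 0 to 1 with high light (0.2% to 0.991%). The log2 ratio of mean shares ranged from 0.15 to 0.25 in bPAC low light, 0.04 to 0.18 in bPAC high light, -0.01 to 0.06 in parental low light and -0.10 to -0.01 in parental high light. It was -0.049 in bPAC high light without the most abundant member. In parental low light it was -0.037 over all reads and 0.13 without that member. The causes were not tested. Members under 1 CPM rest on a few reads, so changes in them were detectable only when large.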
